A study of Homo sapiens with 20 samples.

Results

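The 8 genes described here are ATF4, ATF3, ATF5, DDIT3, TRIB3, CHAC1, ASNS and PPP1R15A, a set of integrated stress response genes. They were chosen by name, with earlier results of these data known. All 8 were found among the 27697 protein-coding and lncRNA genes that had at least 1 count in each condition. Their levels were measured by RNA-seq of polyadenylated RNA in NGP, an established human neuroblastoma cell line, in 20 samples from cells grown in 6-well flasks. The cells of 10 samples were treated with nutlin-3, an inhibitor of MDM2, as a racemic mixture at 8 µM, and those of the other 10 with ethanol, its vehicle. All samples come from the same line, and the labels name no further allele or agent and give no batch or treatment time. The study describes the 10 samples of a condition as biological replicates of this line, so p-values measure the spread among cultures of 1 line.

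In the integrated stress response, kinases that sense different stresses phosphorylate the translation initiation factor eIF2. General protein synthesis then falls, while the mRNA of the transcription factor ATF4 is translated better. ATF4 protein switches on genes for amino acid supply, further transcription factors and the phosphatase subunit that reverses the signal, so that the mRNA of ATF4 itself is not a direct readout of its protein.

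The total estimated count of a sample was between 14455477 and 19532971 read pairs, with medians of 17819527 in vehicle and 15675936 in nutlin samples. The 8 markers reported here for adrenergic neuroblastoma cells (PHOX2A, HAND2, GATA3, ISL1, TH, DBH, CHGA and MYCN) had at least 48.3 TPM in every sample. Of 9 markers of fibroblasts, immune, endothelial and epithelial cells, none exceeded 2.82 TPM in a sample, and CD3E was at 0 in all samples. The summed level of these other markers was 2.84 to 6.63 TPM in vehicle and 2.45 to 5.15 TPM in nutlin samples. As a check of the treatment, 5 genes that are known to rise when MDM2 is inhibited were called higher after nutlin, with LFC (log2 fold change, nutlin over vehicle) of 4.51 for MDM2, 5.68 for CDKN1A, 2.72 for ZMAT3, 3.82 for PHLDA3 and 4.43 for FDXR. Every nutlin sample was above every vehicle sample for these 5 genes. One library stood apart for the genes of interest, since nutlin replicate 4 had the lowest level among the nutlin samples for 7 of the 8 stress response genes and for 4 of the 5 check genes.

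Sequence motifs were looked for in the 250 bases before the start of the leading transcript of each gene, that is, the transcript with most of its counts. The C/EBP-ATF response element, at which ATF4 binds together with C/EBP partners, has the core TGATGNAA, and the cAMP response element has the letters TGACGTCA. Both strands were searched. The response element core was present before ASNS, CHAC1 and ATF3 (3 of 8 windows), against 1.99% of 17350 windows of tested protein-coding genes. The cAMP response element was present before PPP1R15A (1 of 8 windows), against 2.43% of the windows. The letters do not overlap between the motifs in these genes. The 8 genes were chosen by name as stress response genes, so the shares of windows are a description only. Each match is given in a stretch of 30 bases of hg38, 5′ to 3′ on the strand of the gene, so that the letters beside the motif can be read. Capitals mark the motif, which reads TTGCATCA where the core lies on the opposite strand.

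ASNS, chr7:97872458-97872487, minus strand: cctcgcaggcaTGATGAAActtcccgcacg
CHAC1, chr15:40953251-40953280, plus strand: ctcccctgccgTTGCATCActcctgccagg
ATF3 near site, chr1:212608729-212608758, plus strand: tataaaaggggTGATGCAAcgctctccaag
ATF3 far site, chr1:212608547-212608576, plus strand: cctccccgaacTTGCATCAccagtgccccc
PPP1R15A, chr19:48872352-48872381, plus strand: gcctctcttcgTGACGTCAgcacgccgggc

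The match began 68 bases before the start of ASNS-202, 209 bases before CHAC1-203, 21 and 203 bases before ATF3-202 and 58 bases before PPP1R15A-201. Because the genes have several starts in GENCODE, the same letters lay in a non-coding part of an exon of 2 of 17 annotated ASNS transcripts, 1 of 3 CHAC1 transcripts and 1 of 5 PPP1R15A transcripts. For ATF3 the near site was exonic in 1 and intronic in 2 of 10 transcripts, and the far site intronic in 2. Neither motif was found in the windows of ATF4, ATF5, DDIT3 and TRIB3, which says only that these letters were not in that stretch. The p53 half-site, which was searched in the same way, was found in 0 of the 8 windows, against 4.66% of all windows. At so low a share, 0 of 8 windows is a likely count for any genes. It says nothing about p53 sites outside these windows.

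All 8 genes were significantly differentially expressed (SDE, at 5% FDR with the quasi-likelihood test of edgeR) and higher after nutlin, and none was lower. Of all genes tested, 32.3% were SDE and higher and 26.5% were SDE and lower. Of the protein-coding genes alone, where their mean level reached 1 CPM (counts scaled by TMM to library size), 31.4% were SDE and higher. In bulk RNA, a change in the level per cell and a change in the share of cells with the mRNA cannot be told apart. At least a 2-fold rise was found for 7 of the 8 genes, against 16.2% of all genes. In CPM every nutlin sample was above every vehicle sample for 7 of 8, against 12.2% of all genes. The median LFC of the 8 genes was 2.29, compared with 0.189 for all genes tested and -0.149 for the protein-coding genes of 1 CPM or more.

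**Figure D1:**
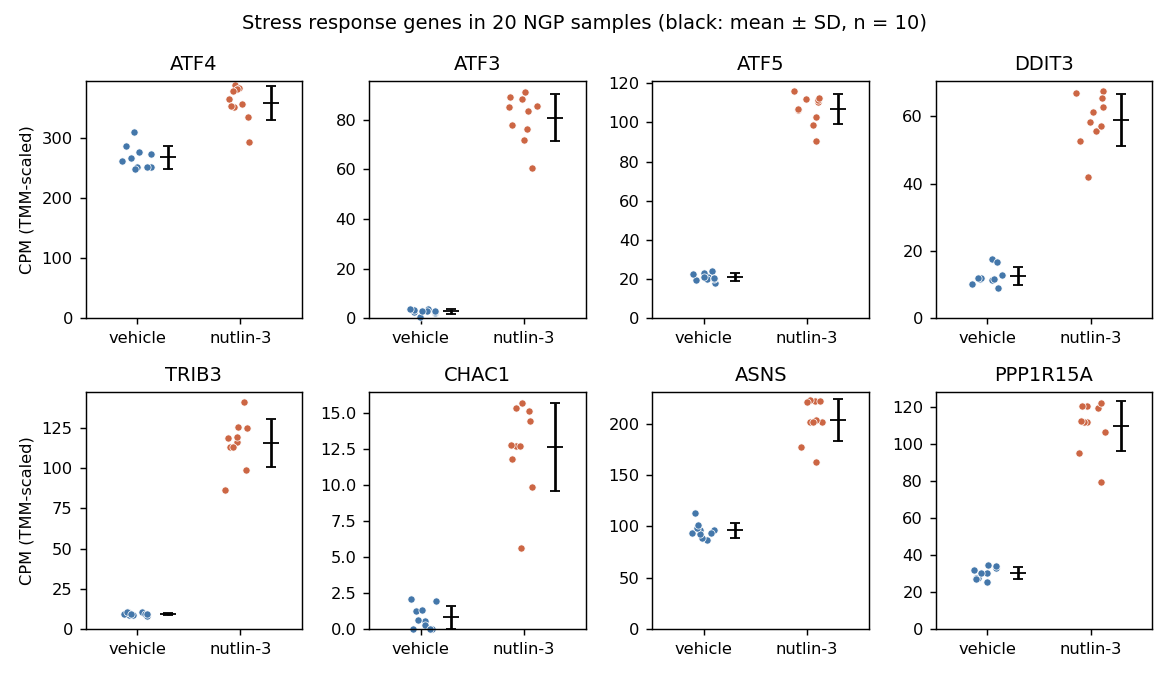
Level of each of the 8 genes in CPM (linear axis from 0) in the 10 vehicle (blue) and 10 nutlin (orange) samples, 1 point per sample, with the mean and SD in black. The groups are apart for every gene other than ATF4, whose lowest nutlin sample (293.1 CPM) lies below its highest vehicle sample (310.0 CPM).

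ATF4 (22:39519695-39522683, plus strand of hg38), the central transcription factor of the response, had the smallest change of the 8. Its level was 248.6 CPM in the lowest, 264.6 in the median and 310.0 in the highest vehicle sample, and 293.1, 361.2 and 388.3 CPM in the nutlin samples. In CPM the groups overlapped by 1 nutlin sample, replicate 4, while the other 9 were above all vehicle samples. In TPM the groups were apart, with 222.8 in the highest vehicle and 238.0 in the lowest nutlin sample. The mean rose from 268.0 ± 19.5 to 359.0 ± 28.8 CPM (SD, n = 10 each), an LFC of 0.42 (SE 0.046, adjusted p = 3.18e-09) or 1.34-fold with a 95% interval of 1.25 to 1.43. An LFC larger than that of ATF4 was found for 11060 genes, which is 39.9% of those tested.

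The other 3 transcription factors changed more. ATF3 (1:212565334-212620777, plus strand), a stress-induced factor of the same bZIP family, went from a lowest, median and highest level of 0.465, 2.79 and 3.63 CPM in vehicle samples to 60.5, 84.3 and 91.1 CPM after nutlin. These levels did not overlap, and the lowest vehicle value came from replicate 5. Its LFC of 4.90 (SE 0.12, adjusted p = 2.37e-24) was the largest of the 8 genes and was exceeded by 117 of the genes tested.

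ATF5 (19:49928702-49933935, plus strand), which like ATF4 is regulated at translation, had 18.0, 20.8 and 24.4 CPM in the lowest, median and highest vehicle sample. After nutlin it had 90.4, 108.7 and 116.2 CPM, far above the vehicle range. The LFC was 2.35 (SE 0.050, adjusted p = 7.36e-26). ATF5 shares 565 exonic bases with NUP62 on the opposite strand, whose median count fell from 5323.9 in vehicle to 2870.9 in nutlin samples, so the direction of its neighbour was opposite to its own.

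DDIT3 (12:57516588-57521737, minus strand), which encodes the pro-apoptotic factor CHOP, had 8.96, 11.8 and 17.6 CPM in the lowest, median and highest vehicle sample. The nutlin samples had 41.9, 59.8 and 67.5 CPM, again without overlap. The LFC was 2.24 (SE 0.093, adjusted p = 5.38e-19). Its exons share 355 bases with MARS1 and 58 bases with MBD6 on the opposite strand. The median count of MARS1 was 5117.0 in vehicle and 5109.6 in nutlin samples. That of MBD6 was 1480.1 and 1967.9, higher after nutlin like DDIT3. Whether the authors' counting used the strand is not stated.

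Feedback on the response is the role of TRIB3 and PPP1R15A. TRIB3 (20:362835-397559, plus strand), a pseudokinase that binds and restrains ATF4, had 8.25, 9.43 and 10.5 CPM in the lowest, median and highest vehicle sample and 86.6, 117.6 and 141.0 CPM after nutlin. All nutlin samples were above all vehicle samples, and the LFC was 3.61 (SE 0.071, adjusted p = 8.17e-27).

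PPP1R15A (19:48872212-48876059, plus strand) encodes GADD34, the subunit that directs a phosphatase to eIF2. It had 25.6, 30.1 and 34.5 CPM in the lowest, median and highest vehicle sample and 79.3, 112.1 and 121.8 CPM in the nutlin samples. The groups were apart, with an LFC of 1.87 (SE 0.068, adjusted p = 2.51e-20).

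The last 2 genes encode enzymes. ASNS (7:97851677-97872542, minus strand), asparagine synthetase, had 86.5, 94.8 and 113.1 CPM in the lowest, median and highest vehicle sample and 162.4, 202.9 and 222.8 CPM after nutlin. All nutlin samples were above all vehicle samples, and the LFC of 1.09 (SE 0.053, adjusted p = 3.40e-17) was the smallest after that of ATF4.

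CHAC1 (15:40952962-40956512, plus strand), which degrades glutathione, was the scarcest of the 8. It was at 0 counts in vehicle replicates 5, 7 and 12, where a count of 0 allows up to 0.199, 0.213 and 0.180 CPM (3 counts, counting error only), and its median and highest vehicle levels were 0.588 and 2.06 CPM. The nutlin samples had 5.62, 12.8 and 15.7 CPM, all above the vehicle samples, with the lowest value in replicate 9. The LFC was 3.99 (SE 0.31, adjusted p = 1.67e-12), and it was 5.14 with limma voom, a difference of more than 2-fold in the size of the change.

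**Figure D2:**
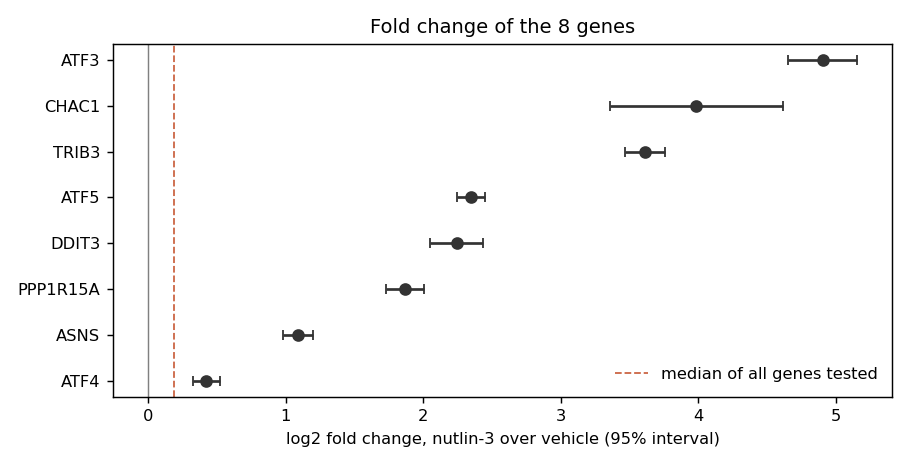
LFC of each gene with a 95% interval derived from the F statistic of edgeR, in order of size, beside the median of all genes tested (dashed). ATF4 at 0.42 is closest to that median of 0.189 and ATF3 at 4.90 is farthest from it. CHAC1 has the widest interval, from 3.36 to 4.62, which does not cover its LFC of 5.14 with limma voom.

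Levels can be compared between genes only per length, so TPM was used for the order. In vehicle samples the order of mean TPM was ATF4 (215.8 ± 5.6, SD), ASNS (62.5 ± 3.9), DDIT3 (16.3 ± 2.9), PPP1R15A (14.2 ± 1.7), ATF5 (14.2 ± 1.7), TRIB3 (4.52 ± 0.41), ATF3 (2.40 ± 0.76) and CHAC1 (0.669 ± 0.574). The ranges of DDIT3, PPP1R15A and ATF5 overlapped from neighbour to neighbour, as did those of ATF3 and CHAC1. After nutlin ATF4 (287.3 ± 23.1 TPM) and ASNS (150.1 ± 15.5 TPM) still had the highest levels and CHAC1 (9.86 ± 2.38 TPM) the lowest. The 5 genes between them had mean levels from 51.2 TPM for PPP1R15A to 78.9 TPM for DDIT3, with each range overlapping the next. ATF3 had moved from the seventh to the fifth place.

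Most counts of each gene came from 1 transcript. PPP1R15A-201 held 98.3% and TRIB3-201 96.1% of the counts of their genes over all samples, and the other 6 genes had at least 2 transcripts with 5% or more. The share of the leading transcript differed between the conditions for 5 of these 6 genes (two-sided permutation test with 100000 resamples, adjusted over the 6 tests). The leading transcript and the 5% limit were taken from the counts of all samples. For genes that rose strongly most of these counts came from nutlin samples, a choice that can favour a higher share after nutlin. DDIT3-201 went from 54.5% ± 7.1 (SD) of the counts of DDIT3 in vehicle to 66.7% ± 2.9 in nutlin samples (adjusted p = 3.9e-04). ATF4-202 went from 92.8% ± 0.8 to 94.4% ± 0.4 (adjusted p = 3.9e-04).

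ATF5-201 rose from 89.1% ± 1.9 to 92.0% ± 1.6 (adjusted p = 0.00274), a difference of 2.83 points that was 4.90 points as a share of TPM. ASNS-202 moved in the other direction, from 83.6% ± 4.5 to 74.3% ± 6.1 (adjusted p = 0.00112), a difference of -9.27 points that was -16.2 points as a share of TPM. The share of ATF3-202 was 49.6% ± 26.1 in vehicle and 80.6% ± 2.5 in nutlin samples (adjusted p = 6.8e-04). With a vehicle range from 0 to 90.1%, on 7.37 to 54.0 counts of the gene per sample, the vehicle share of ATF3-202 was poorly determined. For CHAC1-203 the share was 69.3% ± 47.5 in the 7 vehicle samples with counts and 92.3% ± 4.2 in nutlin samples, a difference that did not pass the exact permutation test (adjusted p = 0.159).

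**Figure D3:**
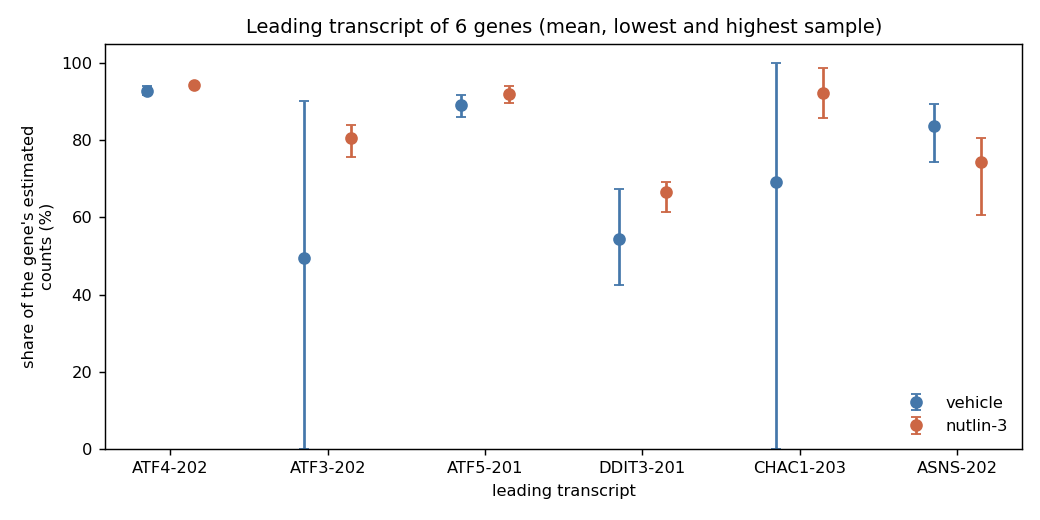
Share of a gene's estimated counts on its leading transcript, in percent, for the 6 genes with at least 2 transcripts of 5% or more, as the mean with bars from the lowest to the highest sample. The vehicle bars of ATF3-202 and CHAC1-203 reach 0, and ASNS-202 is the one transcript with a lower mean after nutlin.

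The variation among samples of a condition was compared between the 8 genes by correlating log2(CPM + 0.5) for the 28 pairs in each condition (56 tests, permutation p adjusted over all). Among the 10 nutlin samples, the 21 pairs without CHAC1 all passed, with Pearson's r from 0.80 to 0.95, and none of the 7 pairs with CHAC1 did (r from -0.20 to 0.09). By Spearman's rho 8 of the 28 pairs passed. CHAC1 was lowest in nutlin replicate 9 (5.62 CPM), a library that was highest for ATF3, DDIT3 and TRIB3. The pairs with CHAC1 were not computed without that library alone. The levels of the 8 genes in nutlin replicate 4 lay a median of 0.40 below the nutlin median on the log2 scale. Without this library, an alternative chosen after its values were seen, 3 of the 21 pairs passed by the exact permutation test, with r from 0.39 to 0.89 over all 21 pairs.

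The 3 pairs that passed without nutlin replicate 4 were ATF3 with TRIB3 (r = 0.89, exact permutation test, adjusted p = 0.0173), ATF3 with ATF5 (r = 0.86, exact permutation test, adjusted p = 0.048) and TRIB3 with ASNS (r = 0.86, exact permutation test, adjusted p = 0.048). With all 10 nutlin samples, ATF3 and TRIB3 had r = 0.95 (p = 1.0e-05, the smallest that the resamples can give) and rho = 0.95 (p = 8.0e-05), and r was 0.80 without the 2 samples farthest from the median of ATF3. Among the vehicle samples 4 of 28 pairs passed, against 2 by Spearman's rho and 1 with TPM in place of CPM. Of the 4, ATF5 with PPP1R15A was the strongest (r = 0.86, p = 8.5e-04, adjusted p = 0.00448 and rho = 0.84, p = 0.00409), with r = 0.78 without the 2 farthest samples. Vehicle replicate 10 had the highest level among the vehicle samples for 6 of the 8 genes.

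**Figure D4:**
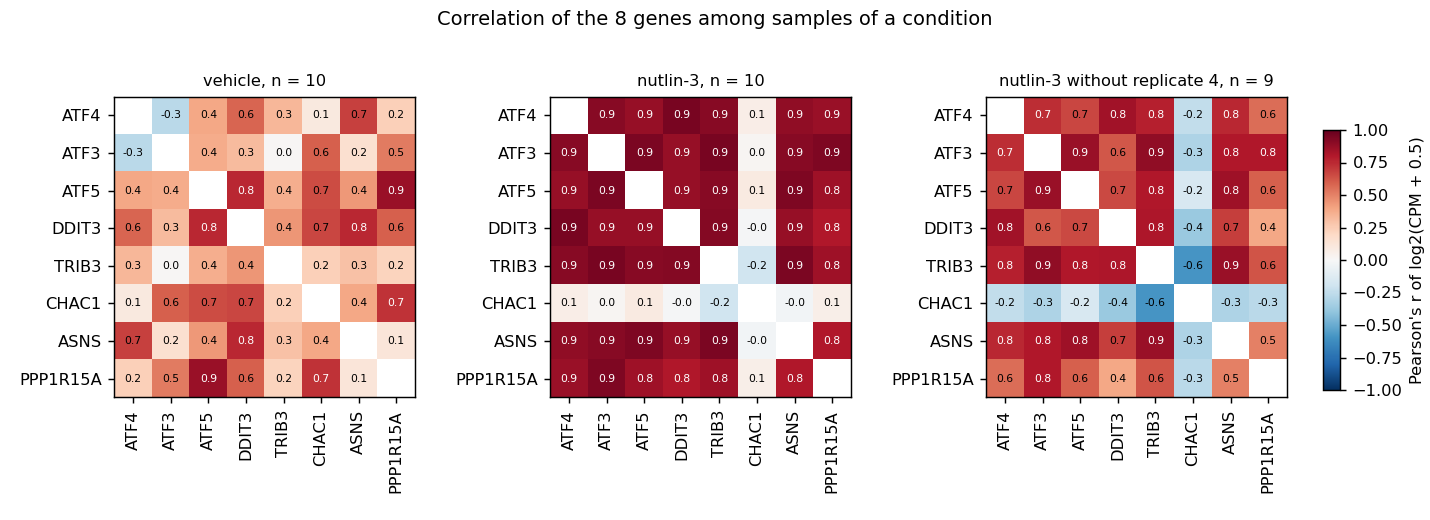
Pearson's r of log2(CPM + 0.5) for each pair of the 8 genes among vehicle samples, nutlin samples, and nutlin samples without replicate 4. The 21 pairs without CHAC1 span 0.80 to 0.95 in the middle panel and 0.39 to 0.89 in the right panel. CHAC1 has no positive r in the right panel, which still holds replicate 9, the nutlin sample lowest for CHAC1.

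The genes whose variation was most like each of the 8, by Pearson's r of the deviations from the condition means over 20 samples, were taken from 9443 protein-coding genes of 10 CPM or more, as a description. For ATF4 they were PHGDH (0.92), ACAT2 (0.91) and FDPS (0.91), although PHGDH was lower after nutlin (LFC -1.16). For ASNS they were SARS1 (0.89), XBP1 (0.86) and CCDC90B (0.85), and for TRIB3 they were AARS1 (0.80), JAG1 (0.79) and MVK (0.79). ATF5 was most like DUSP4 (0.91), NAB2 (0.88) and GADD45A (0.88). DDIT3 was most like TSC22D3 (0.91), RABIF (0.90) and CCDC33 (0.89), and PPP1R15A most like GBX2 (0.90), SLC7A5 (0.89) and SNAI2 (0.88). ATF3 had WWP1 (0.79), IKBIP (0.76) and CPNE8 (0.74), and CHAC1 had DYRK1B (0.80), OSCP1 (0.78) and SLC1A4 (0.76). These values share the libraries. Without nutlin replicate 4 the r of TRIB3 was 0.64 with AARS1 and 0.63 with MVK. That of CHAC1 was then 0.89 with SLC1A4 and 0.80 with DYRK1B, so the order of the genes can depend on this library.

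Upstream of ATF4, the genes of the eIF2 kinases and of the eIF2 and eIF2B subunits changed in both directions. Of 17 genes, 2 were SDE and higher, 8 SDE and lower and 7 not SDE, with a median LFC of -0.15. Of the kinases, EIF2AK1 (HRI, which senses lack of heme, LFC -0.50), EIF2AK2 (PKR, which senses double-stranded RNA, -0.46) and EIF2AK4 (GCN2, which senses lack of amino acids, -0.20) were lower after nutlin. EIF2AK3 (PERK, of the endoplasmic reticulum) had an LFC of -0.09 (SE 0.13, adjusted p = 0.59) and did not pass. EIF2S1, the subunit that is phosphorylated, was lower (-0.53), as was EIF2B3 (-0.59) of the exchange factor. PPP1R15B, the constitutive relative of PPP1R15A, was higher (0.30), as was EIF2S3 (0.22). When counts were scaled by the total only, 7 genes of this list were higher and 6 lower, so that the balance between the directions depends on the scaling. The counts of this and the following lists stand beside 32.3% of all genes SDE and higher and 26.5% SDE and lower. Because the lists were chosen with earlier results of these data known, their counts are a description only.

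Amino acid transporters linked to ATF4 were mostly higher. Of the 9 tested, 7 were SDE and higher and 2 lower, with a median LFC of 0.57. SLC7A11, the cystine transporter, had the largest LFC (3.08, SE 0.11, from 5.23 to 44.8 CPM), followed by SLC6A9 for glycine (1.11) and SLC7A5 for large neutral amino acids (0.89). SLC1A5, a glutamine transporter, was lower (-0.44), and so was SLC43A1 (-0.26, adjusted p = 0.0116). The call of SLC43A1 was lost at 1% FDR, with scaling by the total count, with filterByExpr, with the effective length offset and in the 16 samples with shared replicate numbers, with or without the block.

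Of 11 enzymes of amino acid and one-carbon metabolism, 4 were SDE and higher, 4 lower and 3 not SDE (median LFC 0.06), shares near those of all genes, and 7 were higher and 4 lower with scaling by the total count. CTH, of cysteine synthesis, was higher (0.85), as were ALDH1L2 (0.49) and MTHFD2 (0.24) of the mitochondrial folate pathway. PHGDH, the first enzyme of serine synthesis, was lower (-1.16, from 263.0 to 118.0 CPM), as were ALDH18A1 (-0.60) and PYCR1 (-0.57) of proline synthesis.

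In the list of cytosolic aminoacyl-tRNA synthetases and the tRNA exporter XPOT, 7 of 13 genes were SDE and higher, 1 lower and 5 not SDE, with a median LFC of 0.08. SARS1 was 2.25-fold higher (LFC 1.17), CARS1 had an LFC of 0.67 and YARS1 of 0.37. With scaling by the total count 12 of the 13 were higher and 0 lower. AARS1 was the gene that was lower (-0.11, adjusted p = 0.0282), a call that was lost in 11 of the 20 fits that left out 1 sample (vehicle replicates 3, 5, 7, 10, 11 and 12 and nutlin replicates 1, 2, 3, 4 and 6).

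The other stress genes linked to ATF4 changed most, with 11 of 15 SDE and higher, 3 lower and 1 not SDE, and a median LFC of 2.76. GDF15, a stress-induced cytokine, went from 0.487 to 198.0 CPM (LFC 8.61). Among the genes with a mean over all samples of 1 CPM or more, TNFRSF10B, a death receptor (4.55), and SESN2, an inhibitor of mTORC1 signalling (4.34), followed. CHAC2, the relative of CHAC1, was lower (-1.50), as were EIF4EBP1 (-0.41) and VLDLR (-0.23). The link to ATF4 comes from the choice of the list, and which regulator changed these genes was not tested.

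Of 9 relatives and partners of these genes, 7 were SDE and higher and 2 lower (median LFC 0.52). CEBPA (2.50), CEBPB (1.33) and CEBPG (0.86), of the C/EBP family with which ATF4 pairs, were higher. EGLN3 (-0.50), a prolyl hydroxylase, and BTRC (-0.34), a ubiquitin ligase subunit that binds ATF4, were lower.

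The genes of the ATF6 and XBP1 branches of the unfolded protein response, which answer to misfolded protein in the endoplasmic reticulum, did not share a direction. Of 15 genes, 5 were SDE and higher, 7 lower and 3 not SDE, with a median LFC of 0.01, and with scaling by the total count 8 were higher and 5 lower. ERN1, which encodes the sensor IRE1 (2.57), EDEM1 (1.74) and DNAJB9 (0.36) were higher. The chaperones and folding factors HSP90B1 (-1.17), MANF (-1.16) and SDF2L1 (-0.90) were lower.

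**Figure D5:**
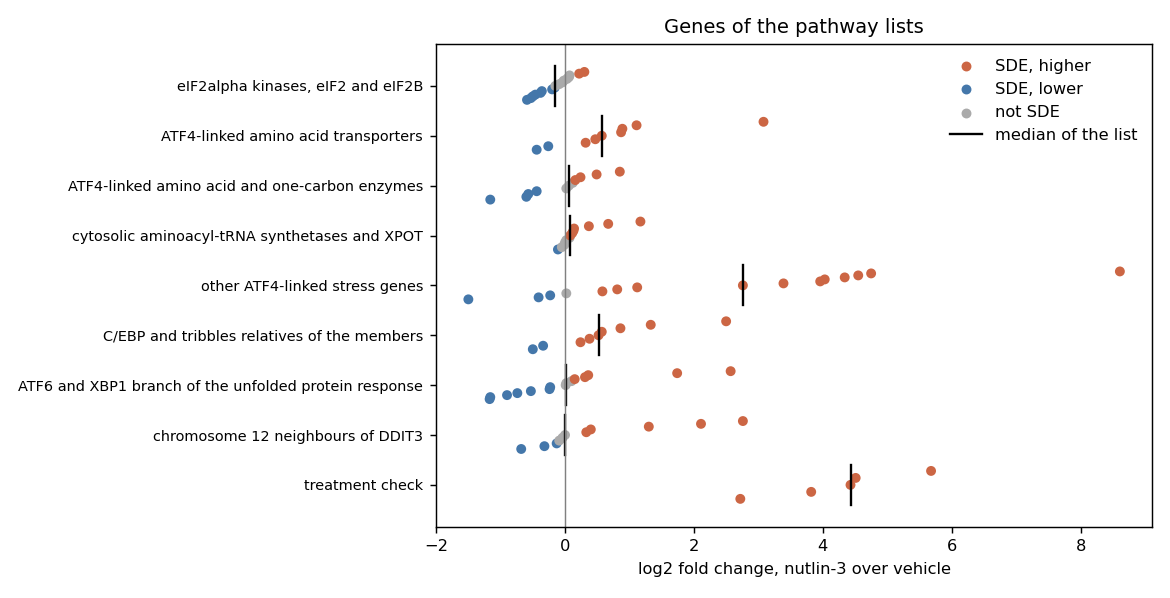
LFC of each tested gene in the 9 lists (1 point per gene, nutlin over vehicle), coloured by its call at 5% FDR, with the median of each list as a black line. The list of other ATF4-linked stress genes has its median at 2.76, while the lists of eIF2 kinases, enzymes, synthetases and the ATF6 and XBP1 branch have medians between -0.15 and 0.08.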

How the data were processed

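RNA-seq of 10 vehicle and 10 nutlin samples was used, grouped by the labels. The libraries were made with a stranded kit. The authors quantified reads with kallisto v0.42.4 on GRCh38 transcripts and deposited estimated counts, which are not normalized, TPM values (scaled by length and library size) and transcript lengths and effective lengths. The strand setting is not given in the sources used here.

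Of 198968 transcripts, 191106 were matched to GENCODE release 44, later than the authors' annotation. Estimated counts were summed per gene and rounded. edgeR 4.0.16 (R 4.3.3) was run with TMM and the quasi-likelihood F-test, condition only, Benjamini-Hochberg adjusted over 27697 genes. DESeq2 1.42.0 and limma 3.58.1 were alternatives. The fits were tested on simulated data with fewer and smaller changes than here, equal in both directions. That setting cannot test how the results depend on the scaling. Permutation tests used scipy 1.17.1 and numpy 2.4.6. Replicate numbers shared by 8 vehicle and nutlin samples did not pair them. From each list the 3 SDE genes with the largest positive and negative LFC and at least 1 CPM are named, and all kinases and check genes. The genes and lists were chosen with earlier results of these data known. One marker gene is not reported here.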

Additional observations from a re-analysis of the deposited data

Results flagged for a closer look

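ATF3 in vehicle replicate 5 was 0.465 CPM, far below the other 9 vehicle samples in relation to their range. The gap to the next sample was 0.531 of the whole range, above the critical value of 0.466 for 10 samples. It was the one sample singled out among 16 groups of 10 samples, and chance singles out about 1 in 20 groups. Without this library the LFC of ATF3 was 4.79 (SE 0.089, adjusted p = 1.99e-26 with edgeR), against 4.90 with all samples.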

How the results depend on the processing

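All 8 genes stayed SDE and higher in each of the 32 alternatives, including DESeq2, limma voom, other scalings, other filters, 1% FDR and leaving out each sample. The LFC of ATF4 ranged from 0.41 to 0.61, of ASNS from 1.07 to 1.28, of PPP1R15A from 1.84 to 2.06, of DDIT3 from 2.21 to 2.43, of ATF5 from 2.32 to 2.54, of TRIB3 from 3.59 to 3.80, of CHAC1 from 3.66 to 5.14 and of ATF3 from 4.72 to 5.09. Scaling by the total count alone moved the median LFC of all genes by 0.184 and the share of SDE genes that were higher from 54.9% to 67.7%. The cause of the changes below was not tested. With the replicate number as a block in 16 samples 14276 genes were SDE, against 14993 in the same samples without it, an alternative chosen after seeing the data. The block changed no call of the 8 genes (ATF4 0.46, ATF3 4.80). Same-numbered samples had r from -0.078 to 0.095, and no vehicle sample correlated best with its own number.

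Scaling by total count gave 7 higher genes of the eIF2 list (2 in the report), 7 of the enzymes (4), 12 of the synthetases (7), 8 of the ATF6 and XBP1 branch (5) and 8 neighbours of DDIT3 (5), and 1 lower transporter (2) and 1 lower relative (2). DESeq2, its size factors and filterByExpr each gave 5 higher genes of the eIF2 list. filterByExpr, the effective length offset, 1% FDR and the 16 samples with and without the block each gave 1 lower transporter. The effective length offset gave 11 higher synthetases, and filterByExpr 3 higher neighbours of DDIT3. There were 0 lower synthetases with total count, DESeq2, its size factors, filterByExpr, no filter, 1% FDR and the 16 samples with and without the block, and 0 to 1 when 1 sample was left out. Pairs correlated among vehicle samples were 4 in the report, 1 with TPM, 2 with Spearman's rho and 1 without nutlin replicate 4, whose adjustment covers both conditions. Pairs among nutlin samples were 21, against 8 with Spearman's rho and 3 without nutlin replicate 4, also chosen after seeing the data. Low counts limit the vehicle values of CHAC1 and ATF3.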

Other observations

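DDIT3 lies on chromosome 12 near CDK4, with a gap of 226.0 kb between them. CDK4 had 4150.0 CPM in vehicle and 2590.0 CPM in nutlin samples (LFC -0.68). Of 11 genes around DDIT3, 5 were SDE and higher, 3 lower and 3 not SDE, with a median LFC of 0.00. Among the genes with a mean over all samples of 1 CPM or more, INHBE, itself linked to ATF4, had the largest LFC (2.76, from 0.359 to 2.45 CPM), followed by MBD6 (0.40) and R3HDM2 (0.33). PIP4K2C (-0.32) and DTX3 (-0.13) were lower with CDK4. MARS1, whose exons overlap those of DDIT3, had an LFC of 0.00 (SE 0.040, adjusted p = 0.937).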
